A study of Mus musculus with 15 samples.

Results

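The proteasome is the barrel-shaped protease that destroys ubiquitin-tagged proteins, and 31 of its subunit genes were followed through the meiotic maturation of the mouse oocyte. The genes were chosen by name: 7 alpha-ring subunits (Psma1 to Psma7), 7 beta-ring subunits (Psmb1 to Psmb7), 6 ATPases (Psmc1 to Psmc6) and 11 non-ATPases (Psmd1, Psmd2, Psmd3, Psmd4, Psmd6, Psmd7, Psmd8, Psmd11, Psmd12, Psmd13 and Psmd14). All 31 were matched by symbol to a gene ID, out of 28785 gene IDs with counts in the deposited files.

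The alpha and beta rings stack into the core particle, in which the beta ring carries the proteolytic sites and the alpha ring forms the gate. The regulatory particle caps the core: its ATPases unfold the substrate and thread it through the gate, and its non-ATPases form the scaffold, the ubiquitin receptors and a lid that strips ubiquitin off. In mouse oocytes, proteasomal destruction of cyclin B and securin is required to complete the first meiotic division, and the fully grown oocyte makes almost no new RNA, so that its mRNA levels are set mainly by storage and decay.

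Single oocytes were profiled with MATQ-seq, a single-cell total RNA method, at 2 stages. The MII group held 6 oocytes at metaphase of the second meiotic division, from mice given 7 IU of pregnant mare serum gonadotropin and then 7 IU of hCG, human chorionic gonadotropin, roughly 48 h after the first injection. Collection followed 20 h after hCG, and hyaluronidase at 300 IU/mL removed the cumulus cells. The GV group held 9 oocytes at the germinal vesicle stage, with the nucleus intact, from mice given 7 IU of pregnant mare serum gonadotropin 44 h before collection. All mice were 6 to 8 weeks old, each cDNA went through 28 PCR cycles and was sheared to about 300 bp, and the labels name neither strain nor mouse. Each oocyte is 1 library. Since no mouse is named, each stage counts as 1 sample, no test was made, and differences are given by their size beside the spread between oocytes.

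The MII libraries held 808641 to 2348281 counts and the GV libraries 3687610 to 7103063. An unnamed feature, ENSMUSG00000119584, took 15.7% to 61.2% of the counts in MII oocytes, no counts in GV1 to GV6 and 3.43% to 11.2% in GV7 to GV9, and was left out of the totals behind CPM, the counts of each gene scaled to the same total in every library. The file headers of GV1 to GV6, of GV7 to GV9 and of the MII oocytes differ, so that a difference between stages cannot be told apart from 1 between file sets, and values against the first GV set (GV1 to GV6) and the second (GV7 to GV9) are given beside the pooled ones. All 8 oocyte markers had counts in both stages. Of 9 cumulus and granulosa markers, 4 had counts in MII and 8 in GV. Their summed level was 5.60 to 61.5 CPM in MII oocytes and 7.02 to 210 CPM in GV oocytes, with Inha, Amh, Foxl2, Ptx3 and Hsd17b1 at 0 in MII. Without Cyp19a1, which made up nearly all of it in MII, the sum was at most 1.57 CPM in MII oocytes and 4.58 to 187 CPM in GV oocytes, with no overlap. The part of such cells in the values below was not tested.

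Three-prime end sequences of 5 subunits that the results turn on are printed first, because stored mRNAs are lengthened or shortened at their tails during maturation. Each piece is a stretch close to the end of the 3' UTR in the GENCODE M21 transcripts of build GRCm38, sense strand, and the capitals mark the AATAAA polyadenylation signal and, where present, the cytoplasmic polyadenylation element (TTTTAT or TTTTAAT). In Psmb1 and Psmb3 the element and the signal overlap in 1 run of capitals. The genes lie on chromosomes 3 (Psmd4), 7 (Psmd13), 14 (Psmb5), 17 (Psmb1) and 11 (Psmb3).
Psmd4: cctttatgatggAATAAAgcttggcaagtt
Psmd13: gagtgctgctctAATAAAtgccttggcatt
Psmb5: ctccatggctatAATAAAtaatagtacctc
Psmb1: tTTTTAATAAActtctgttctgatttc
Psmb3: tTTTTAATAAAattgcctttctttc

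The element occurred on the sense strand in the last 150 bases of the 3' UTR, or in the whole UTR where shorter, in 4 of 31 subunits (12.9%): Psma1, Psma5, Psmb1 and Psmb3. It occurred in 25.2% of 9385 measured protein-coding genes. The subunits with it had a median log2 ratio MII over GV of −0.19, and those without it −0.29. Among all measured protein-coding genes the medians were −0.05 with the element and 0.00 without it. A match describes the letters in this window and no binding.

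Most subunit mRNAs lay close to the median gene in MII relative to GV oocytes, with a handful far from it in either direction. Ratios are log2 ratios MII over GV of counts summed over the oocytes of a stage, after adding 0.5 to each sum, relative to the median over 10410 measured genes, those that reached 5 CPM in 1 stage or both. That median gene itself stood at −0.29 on the CPM scale. All 31 subunits were measured, 4 of them (Psma3, Psmb1, Psmb5 and Psmd13) only through their GV level, since they were under 5 CPM in MII. Of all measured genes, 15.4% were under 5 CPM in MII. The median ratio over the 31 subunits was −0.27, beside a spread of 0.82 between oocytes, the root of the summed squared SDs of both stages. By construction, the median over all measured genes was 0. The ratio was below 0 for 22 of 31 subunits, against 50% of all measured genes.

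Psma6, Psmb1, Psmb4, Psmb5, Psmb6 and Psmd13 were at least 2-fold lower in MII than in GV oocytes, 6 of 31 subunits against 15.8% of all measured genes. Psmb2 and Psmd4 were at least 2-fold higher, 2 of 31 against 12.9%. The other 23 lay within 2-fold. The ratio exceeded its gene's spread between oocytes for 5 subunits. Psmb1, Psmb5 and Psmd13 were lower by more than it, against 9.87% of all measured genes. Psmd4 and Psmd8 were higher by more than it, against 8.83%. Ratio and spread are on unlike scales, since the spread is of log2(CPM + 1), which narrows differences near 0. Psmb1, Psmb5 and Psmd13 were under 5 CPM in MII, so that passing the spread means less for them. As shares of the 31, the 2-fold lower subunits made up 19.4%, near that of all genes, and the 2-fold higher ones 6.45%, under that of all genes.

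**Figure D1:**
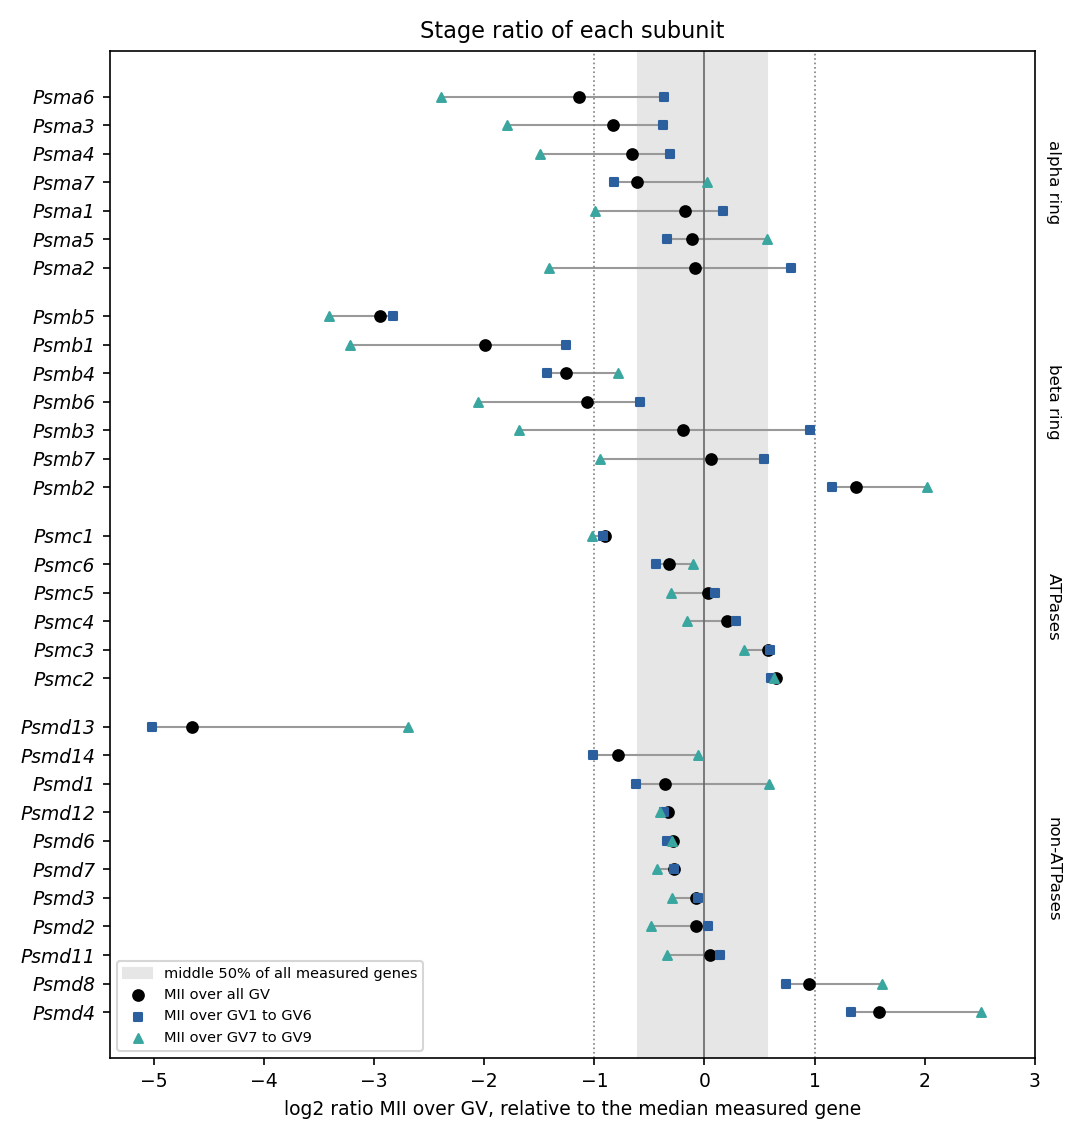
Log2 ratio MII over GV of each subunit (rows, by class), relative to the median measured gene, for all GV oocytes (black circles), GV1 to GV6 (blue squares) and GV7 to GV9 (green triangles). Dotted lines mark 2-fold and the grey band holds the middle 50% of all measured genes. Psmd13 (−4.66) and Psmb5 (−2.95) lie far to the left and Psmd4 (1.59) far to the right, and 10 of the 14 core points lie further left against GV7 to GV9, those of Psma5, Psma7, Psmb2 and Psmb4 further right.

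The 4 subunit classes differed in where they stood. The ATPases had a median ratio of 0.12 (spread 0.996) and the non-ATPases −0.27 (0.42), against −0.61 (1.12) for the alpha ring and −1.06 (1.38) for the beta ring. Taken by particle, the median was −0.63 for the 14 core subunits and −0.08 for the 17 regulatory subunits. Core and regulatory subunits also differ in the sequence they share with other genes, given below. Every class median was smaller than its spread between oocytes. Relative to each oocyte's median gene, as log2(CPM + 1), the median beta-ring level was −0.73 in MII oocytes and −1.29 in GV oocytes. The alpha ring had −0.83 and −0.65, the ATPases 0.93 and 1.25, and the non-ATPases 1.63 and 1.45. Only the alpha ring thus kept the direction of its ratio from summed counts. By means over oocytes the beta ring kept it too, with −1.14 and −0.82, and the ATPases and non-ATPases did not. The beta ring held 4 of the 6 subunits that were at least 2-fold lower.

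The core medians depended on which GV oocytes were set against MII. For the alpha ring the median ratio was −0.34 against the first GV set and −1.41 against the second, and for the beta ring −0.58 and −1.69. For the ATPases it was 0.19 against the first GV set and −0.13 against the second, and for the non-ATPases −0.28 and −0.29. These 2 comparisons share the MII oocytes. Between the GV sets themselves, 9 of 31 subunits were higher by at least 2-fold in the second than in the first, all of them core subunits: Psma1, Psma2, Psma3, Psma4, Psma6, Psmb1, Psmb3, Psmb6 and Psmb7. Of all measured genes, 18.1% were that much higher. Psmd1, Psmd4 and Psmd13 were at least 2-fold lower in the second, against 20.2% of all measured genes, and no ATPase differed 2-fold. The median log2 ratio of GV7 to GV9 over GV1 to GV6 was 1.22 for the alpha ring and 1.51 for the beta ring, and 0.21 for the ATPases and −0.01 for the non-ATPases.

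Against GV1 to GV6 alone, 5 of 30 measured subunits were at least 2-fold lower in MII (Psmb1, Psmb4, Psmb5, Psmd13 and Psmd14; 16.6% of all measured genes) and 2 at least 2-fold higher (Psmb2 and Psmd4; 13.3%). Against GV7 to GV9 alone, 9 of 30 were lower (21.1% of all measured genes) and 3 higher (Psmb2, Psmd4 and Psmd8; 21.5%). The 9 were Psma2, Psma3, Psma4, Psma6, Psmb1, Psmb3, Psmb5, Psmb6 and Psmc1. Psmb1 and Psmb5 were lower, and Psmb2 and Psmd4 higher, against either GV set.

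**Figure D2:**
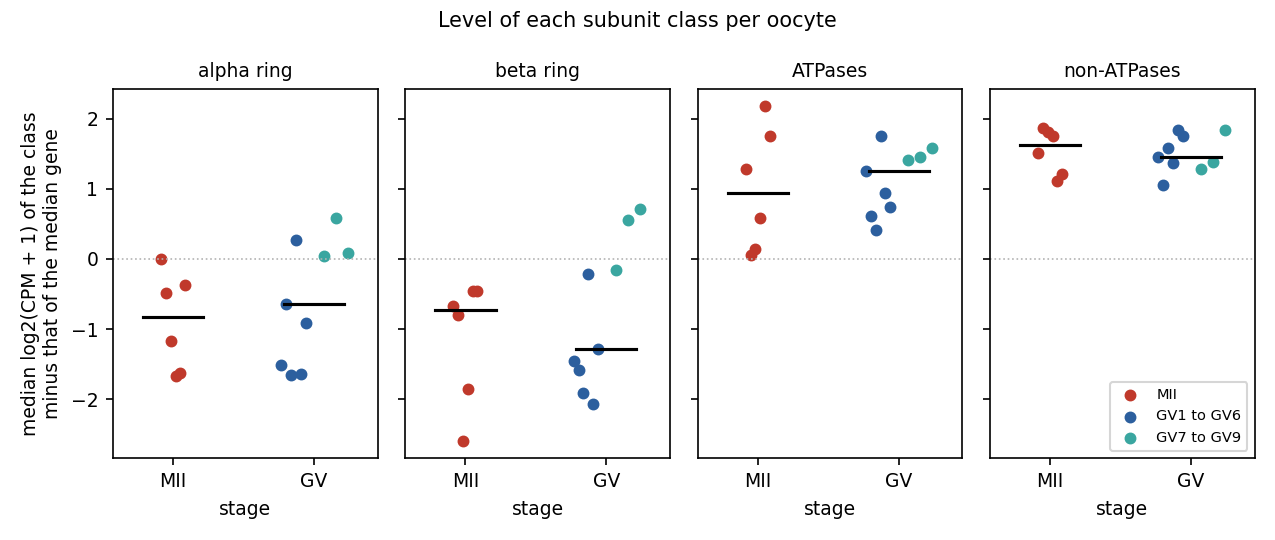
Median level of each subunit class in every oocyte, as log2(CPM + 1) relative to the median measured gene of that oocyte, for MII oocytes (red), GV1 to GV6 (blue) and GV7 to GV9 (green), with a bar at each stage's median. The alpha ring spans −1.67 to 0.00 in MII and −1.66 to 0.58 in GV, the beta ring −2.60 to −0.46 in MII and −2.07 to 0.71 in GV, and GV7 to GV9 lie at the upper end of both.

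In single oocytes the regulatory particle stood above the core at both stages. The median regulatory subunit exceeded the median core subunit by 1.35 to 2.81 log2 units over the 6 MII oocytes and by 0.82 to 2.91 over the 9 GV oocytes, on the log2(CPM + 1) scale, which is not corrected for gene length. The 3 smallest gaps among GV oocytes were those of GV7, GV8 and GV9, at 1.46, 0.82 and 1.34. Per kb of exon, the median subunit of the regulatory particle had 15.2 CPM per kb in MII and 22.3 in GV, and that of the core 4.77 in MII and 9.46 in GV.

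The alpha-ring subunits form the gate and the docking surface for the regulatory particle. All 7 of their ratios against all GV oocytes pooled lay below the median gene. Against the first GV set alone, Psma1 (0.17) and Psma2 (0.79) lay above it, and against the second, Psma5 (0.57) and Psma7 (0.03). Psma6 had the lowest pooled ratio of the ring, −1.14 (spread 1.27). It had 1.73, 5.54 and 12.1 CPM (lowest, median and highest) in MII oocytes, against 3.52, 12.4 and 56.7 CPM in GV oocytes. The ranges overlapped, the 3 highest values were those of GV7, GV8 and GV9, and the ratio was −0.37 against the first GV set and −2.39 against the second. Psma2 had the pooled ratio nearest 0, −0.09. It also had the widest disagreement between GV sets within the ring, 0.79 against the first GV set and −1.41 against the second. Its level was 3.14, 23.4 and 44.8 CPM in MII oocytes and 3.33, 23.3 and 91.1 CPM in GV oocytes.

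Psma7 was the most abundant alpha-ring mRNA per length, with 31.1 CPM per kb of exon in MII and 58.0 in GV. It had 29.0, 112 and 127 CPM in MII oocytes, against 60.0, 144 and 469 CPM in GV oocytes. MII4 lay far under the other MII oocytes, GV4 far above the other GV oocytes, and the ranges overlapped. Its ratio was −0.61 (spread 1.07), and 0.03 against GV7 to GV9. The other alpha-ring ratios were −0.83 for Psma3, −0.66 for Psma4, −0.17 for Psma1 and −0.12 for Psma5. Psma3 was the scarcest, with 15 counts over the MII oocytes, 3 of which had none, and 243 counts over the GV oocytes.

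The beta ring held both the deepest deficit and the largest excess of the core. Its 3 proteolytic subunits are Psmb6 (caspase-like), Psmb7 (trypsin-like) and Psmb5 (chymotrypsin-like). Psmb5 (ENSMUSG00000022193), the subunit that clinical proteasome inhibitors such as bortezomib bind, had 5 counts over the 6 MII oocytes, in MII1 and MII6, and 375 counts over the 9 GV oocytes. That was 0.842 CPM in MII (exact Poisson 95% interval 0.273 to 1.96) and 8.71 CPM in GV (7.85 to 9.64). The MII over GV ratio of CPM was 0.0966 (0.0312 to 0.228, exact, counting error only). At the GV level, the MII oocytes would have held 51.7 counts. In GV oocytes Psmb5 had 0.282, 6.39 and 25.8 CPM, and the lowest, GV3, lay under the 3.73 CPM of MII1, so that the ranges overlapped. The log2 ratio was −2.95 (spread 1.505), −2.83 against the first GV set and −3.41 against the second.

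Psmb6 had 6.28, 18.6 and 41.0 CPM in MII oocytes, against 7.27, 44.9 and 125 CPM in GV oocytes, with a ratio of −1.06 (spread 1.48). Psmb7 had 0.783, 6.08 and 25.2 CPM in MII oocytes and 2.53, 10.2 and 22.9 CPM in GV oocytes, with a ratio of 0.06 (spread 1.64). The 3 proteolytic subunits thus had ratios of −2.95, −1.06 and 0.06. Of the structural beta subunits, Psmb1 had 17 counts in MII and 614 in GV (ratio −1.99, spread 1.89), with 2 MII oocytes at 0. At the GV level it would have had 84.7 counts in MII. Psmb4 had a ratio of −1.25 (spread 1.57) and Psmb3 of −0.20 (1.89). The ratio of Psmb4 was −1.43 against the first GV set and −0.79 against the second. That of Psmb3 changed direction, with 0.95 against the first and −1.69 against the second, the widest such gap of the 31 subunits, and that of Psmb7 did likewise, with 0.55 and −0.95.

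Psmb2 (ENSMUSG00000028837), a structural beta subunit, was higher in MII, at 305 CPM (291 to 320) against 144 CPM in GV (140 to 147). Its MII values fell apart: MII1, MII2 and MII3 had 112, 92.3 and 115 CPM, and MII4, MII5 and MII6 had 242, 1002 and 451 CPM. In GV oocytes it had 47.1, 102 and 404 CPM, so that the first 3 MII oocytes lay among the GV oocytes and only MII5 and MII6 above all of them. The ratio of 1.37 was smaller than its spread of 1.66, and was 0.32 without MII5 and MII6. In these 2 oocytes the unnamed feature took 52.6% and 61.2% of the counts, the most of all, and MII5 had the highest summed theca and stroma markers (51.2 CPM, against at most 17.4 CPM in GV oocytes, with Cyp17a1, Col3a1 and Dcn at 0 in MII). The part of either in the Psmb2 values was not tested. The heat map of all subunits shows these values in each oocyte.

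**Figure D3:**
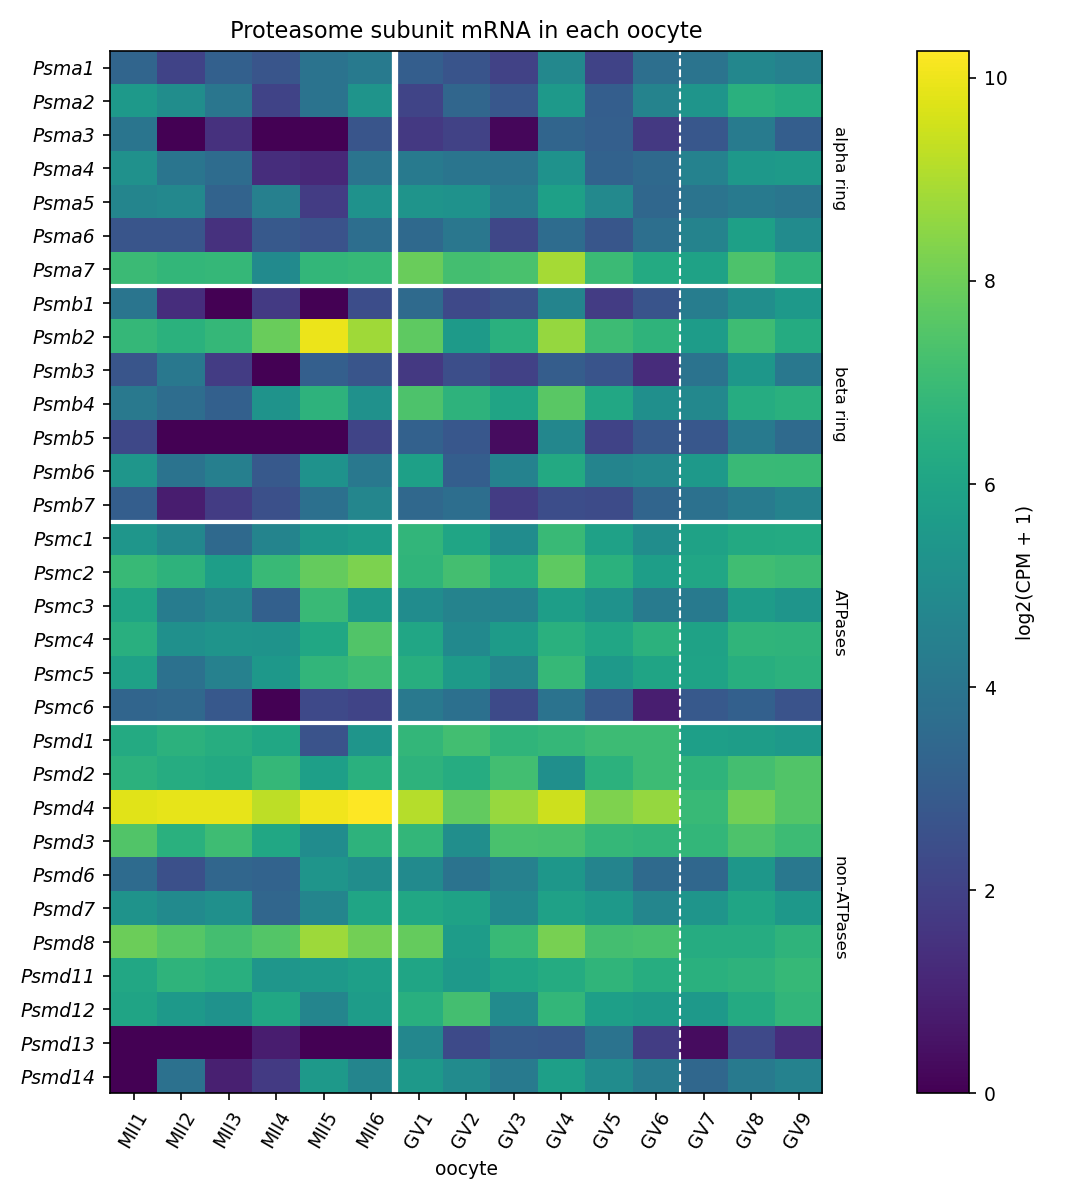
Level of each subunit (rows, by class) in every oocyte (columns), as log2(CPM + 1), with MII oocytes left of GV oocytes and a dashed line between GV6 and GV7. Psmd4 is the brightest row in MII, Psmb2 is bright in MII4, MII5 and MII6, Psmd13 is at 0 in 5 of 6 MII oocytes, and Psma2, Psma6, Psmb1 and Psmb6 are brightest in GV8 and GV9.

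The 6 ATPases, which form the unfolding ring at the base of the regulatory particle, all lay within 2-fold. Psmc2 had the highest ratio, 0.65 (spread 1.03), with 53.5, 121 and 301 CPM in MII oocytes and 53.2, 104 and 212 CPM in GV oocytes. Psmc1 had the lowest, −0.90 (spread 0.93), with 10.4, 33.4 and 49.4 CPM in MII oocytes and 31.3, 65.0 and 123 CPM in GV oocytes. MII1, MII5 and MII6 lay above the lowest GV value of Psmc1, and all MII oocytes lay below GV7 to GV9, whose lowest value was 59.7 CPM, as for 13.2% of all measured genes in CPM. Psmc5 was the most abundant ATPase mRNA per length, at 39.9 CPM per kb in MII and 47.6 in GV, with a ratio of 0.03. It had 13.3, 50.9 and 130 CPM in MII oocytes and 25.3, 63.1 and 118 CPM in GV oocytes. The remaining ratios were 0.58 for Psmc3, 0.21 for Psmc4 and −0.32 for Psmc6. Psmc6 was scarce at both stages, with 1.49 CPM per kb in MII and 2.30 in GV.

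The non-ATPases held the highest and the lowest ratio of all 31 subunits, and the other 9 lay within 2-fold. Psmd4 (ENSMUSG00000005625), a ubiquitin receptor of the regulatory particle, had 5494 counts in MII and 16133 in GV, or 925 CPM (901 to 950) in MII and 375 CPM (369 to 381) in GV. It had 599, 948 and 1230 CPM in MII oocytes, against 120, 308 and 717 CPM in GV oocytes. MII4, the lowest MII oocyte, lay under GV4, the highest GV oocyte, and the other 5 MII oocytes lay above every GV oocyte. The ratio was 1.59 (spread 0.81), 1.33 against the first GV set and 2.51 against the second.

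Relative to the median gene of each oocyte, all MII values of Psmd4 lay above all GV values. It was the 1 subunit of 31 for which this held, as for 1.62% of all measured genes, and for no subunit did all MII values lie below all GV values, as for 0.845%. In CPM no subunit separated the stages in either direction, where 1.32% of all measured genes lay wholly lower and 0.768% wholly higher in MII. Against the first GV set alone, Psmd1 and Psmd13 lay wholly lower in CPM (2.25% of all measured genes) and no subunit wholly higher (1.17%). Relative to the median gene, Psmd13 lay wholly lower there (1.34%) and Psmd4 wholly higher (2.43%). Against the 3 oocytes of the second set, Psma6, Psmb1, Psmb5, Psmb6 and Psmc1 lay wholly lower and Psmd4 and Psmd8 wholly higher on both scales. Of all measured genes, 13.2% lay wholly lower there and 6.36% wholly higher in CPM, and 9.93% wholly lower and 8.86% wholly higher relative to the median gene. Psmd4 mRNA was 29.1% to 47.0% of the summed CPM of the 31 subunits in MII oocytes, against 8.79% to 23.9% in GV oocytes. The summed CPM of the 31 was 1760 to 3619 (median 2321) in MII oocytes and 1288 to 3652 (median 1799) in GV oocytes. Without Psmd4 and Psmb2 it was 919 to 1758 (median 1298) in MII and 1118 to 2531 (median 1359) in GV.

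Psmd13 (ENSMUSG00000025487), a structural lid subunit, stood at the other end, with 1 count over the 6 MII oocytes, in MII4, and 334 counts over the 9 GV oocytes. It had 0.168 CPM in MII (0.00426 to 0.938) and 7.76 CPM in GV (6.95 to 8.64). The MII over GV ratio of CPM was 0.0217 (0.000548 to 0.122, exact, counting error only). At the GV level, the MII oocytes would have held 46.1 counts. In GV oocytes it had 0.255, 3.99 and 25.8 CPM, highest in GV1 and lowest in GV7. A floor of 3 counts corresponds to 2.35 to 5.60 CPM in single MII oocytes, and to 0.505 CPM over the 6 together. The log2 ratio was −4.66 (spread 1.30), −5.02 against the first GV set and −2.69 against the second, in which Psmd13 had 1.85 CPM and did not reach the 5 CPM filter. The highest GV value belonged to GV1, which also had the highest summed cumulus and granulosa markers; their part was not tested.

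Psmd8, a lid subunit, had the second highest ratio of the class, 0.95 (spread 0.91), with 148, 220 and 428 CPM in MII oocytes and 50.4, 120 and 282 CPM in GV oocytes. Psmd14, the lid deubiquitinase that cuts ubiquitin chains off the substrate, had a ratio of −0.79 (spread 2.37) and was uneven in MII, with 0.00 CPM in MII1 and 44.8 CPM in MII5. Psmd7, its partner subunit, had a ratio of −0.27. The scaffold subunits Psmd1 and Psmd2 had ratios of −0.36 and −0.07. Psmd1 had 5.12 CPM in MII5, its lowest value, and 94.7 CPM in MII2, and all its MII values lay below those of GV1 to GV6, as for 2.25% of all measured genes, but not below those of GV7 to GV9. The lid subunits Psmd3, Psmd6, Psmd11 and Psmd12 had ratios of −0.08, −0.29, 0.05 and −0.33. Over the 8 lid subunits the median was −0.28, against 0.03 over the 9 subunits of the base (the ATPases with Psmd1, Psmd2 and Psmd4).

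Subunits that sit together in 1 complex differed widely in mRNA level, more so in MII. Per kb of exon, the level ran from 0.0499 CPM (Psmd13) to 329 CPM (Psmd4) in MII and from 1.45 CPM (Psma3) to 133 CPM (Psmd4) in GV. The SD of the log2 level over the 31 subunits was 2.55 in MII and 1.68 in GV. The lowest MII level, that of Psmd13, rests on 1 count, under the floor of 0.505 CPM, and the MII libraries held fewer counts. The part of either in the wider range in MII was not tested. Psmd4 was first and Psmb2 second at both stages. They were followed by Psmd8 (74.97), Psmc5 (39.9) and Psma7 (31.1) in MII, and by Psma7 (58.0), Psmc5 (47.6) and Psmb4 (47.5) in GV. The order was much alike at both stages, with a Spearman correlation of 0.93 across the 31 genes, which share their libraries. Psmd4 stood above 98.9% of measured genes in level per kb in MII and above 97.3% in GV. With the longest transcript as the length, 4 of the 5 highest subunits were shared with this order at each stage, and Psmd4 was again first.

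**Figure D4:**
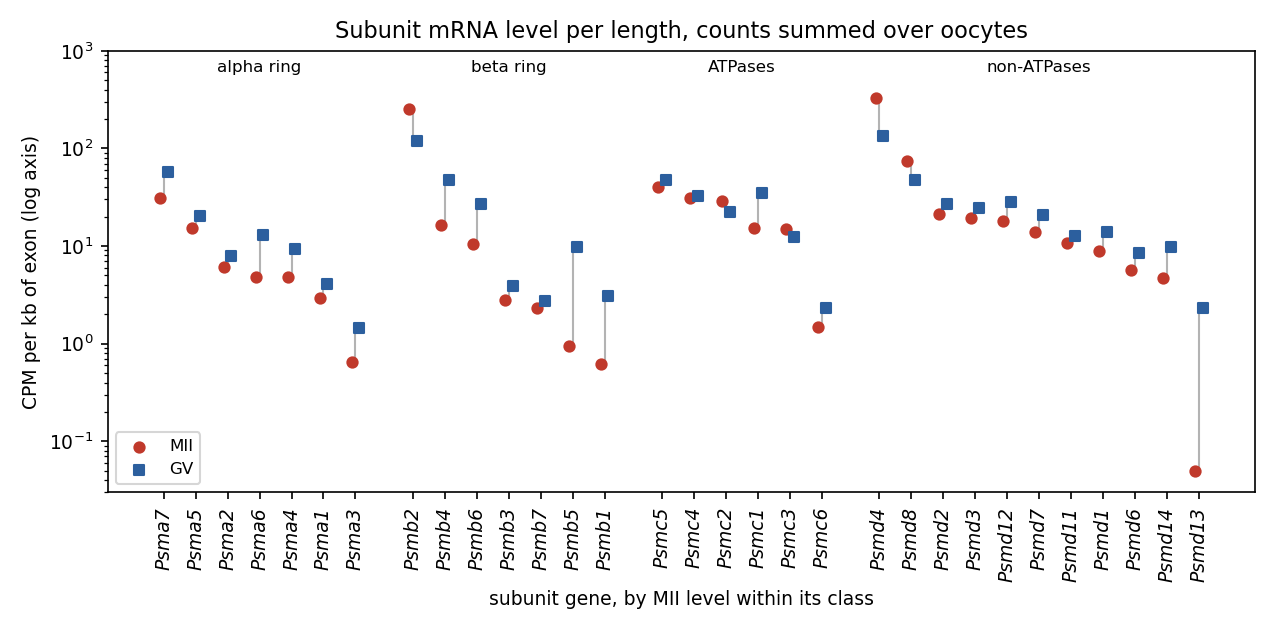
CPM per kb of exon (log axis) of each subunit, counts summed over oocytes, in MII (red circles) and GV (blue squares), ordered by the MII level within each class. Psmd4 and Psmb2 lead at both stages, with 329 and 254 in MII and 133 and 119 in GV, and Psmd13 falls furthest apart, with 0.0499 in MII and 2.30 in GV.

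Many proteasome genes have processed pseudogenes, and reads from such near-identical copies may be split or dropped in counting. No source used here says how the authors treated them. Of the 31 subunits, 12 shared no 31-base stretch of their annotated transcripts with another gene and 15 shared at least 5% of them, a limit set after the values were seen. Not all of this sharing was with pseudogenes. Among the 15, Psmb7, Psmd13 and Psmd1 reached the limit through protein-coding genes that overlap them (Nek6, Sirt3 and Gm21972). The pseudogene Psmb7-ps2 held 4.07% of the stretches of Psmb7, and Gm7419 held 2.04% of those of Psmd13. All the sharing of Psmd1, 8.92%, was with Gm21972. The median level per kb was 4.76 CPM in MII and 9.69 in GV for these 15, against 18.7 in MII and 26.4 in GV for the other 16. Across the 31 genes, the Spearman correlation of the shared percentage with level per kb was −0.52 in MII and −0.45 in GV. The median ratio was −0.66 for the 15 and −0.13 for the 16. Of the 6 subunits at least 2-fold lower in MII, Psma6 and Psmb4 were among the 16. Psmd4 and Psmb2 shared none. The median shared percentage was 12.5% for the core and 0.107% for the regulatory subunits, so that particle and shared sequence go together. In the beta ring the median ratio was 0.06 for the 2 subunits under 5% and −1.06 for the other 5. In the alpha ring the order was reversed, with −0.61 for the 3 under 5% and −0.39 for the other 4. The part of shared sequence in the class differences in ratio and level was not tested.

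**Figure D5:**
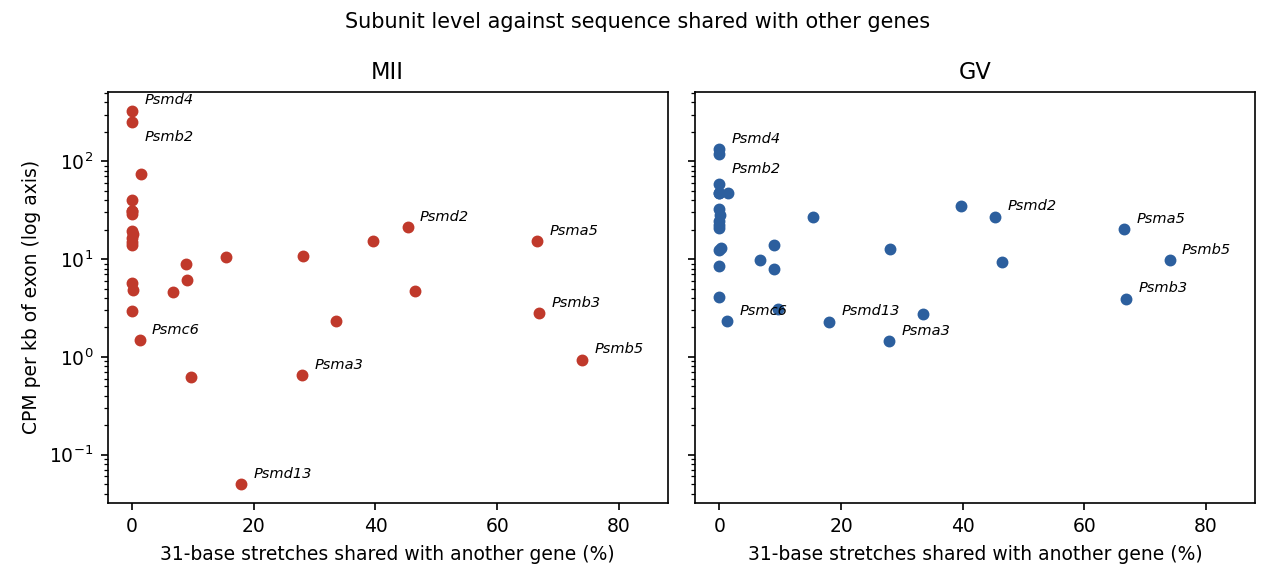
CPM per kb of exon (log axis) of each subunit against the percentage of its 31-base stretches found in another gene's transcripts, in MII (left) and GV (right). Subunits that share none reach 329 in MII and 133 in GV, whereas those sharing at least 5% stay at or under 21.2 in MII and 34.9 in GV.

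Psmb5 shared the most, 74.0%, and its low MII level must be read with that. Its processed pseudogene Gm3375, on chromosome 7, holds 61.7% of its stretches and differs at 8 of 792 coding bases (99.0% identity). The 100 coding bases with the most differences, from coding base 288 to 387 of the GENCODE M21 transcripts (build GRCm38), show how few positions tell the pair apart, with the 3 differing bases in capitals.
Psmb5: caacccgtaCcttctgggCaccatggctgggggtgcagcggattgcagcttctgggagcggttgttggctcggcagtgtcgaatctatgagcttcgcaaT
Gm3375: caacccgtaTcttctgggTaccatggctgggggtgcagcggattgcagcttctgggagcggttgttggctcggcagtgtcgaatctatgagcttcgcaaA

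Gm3375 had 1 count in MII and 208 in GV, so that reads assigned to it and to Psmb5 were both few in MII. Of 36 pseudogenes that hold at least 1% of the stretches of a subunit, 22 had counts, and the highest level of any was the 4.83 CPM of Gm3375 in GV. Psmd13 overlaps the opposite-strand gene Sirt3 over 342 bases of exon, and Sirt3 had 1 count in MII and 110 in GV. Without a stated use of strand, reads of the 2 within this overlap, 10.1% of the Psmd13 exon bases, cannot be told apart. The same holds for the overlaps of Psmb7 with Nek6 (11.8%) and of Psmc3 with Slc39a13 (8.25%). Psmb5 overlaps the microRNA gene Mir686 on the same strand over 109 bases (12.1% of its exon bases), where strand cannot tell them apart. Mir686 had 0 counts at both stages.

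The antioxidant-response core letters TGACNNNGC, bound by Nfe2l1 (the factor that induces proteasome genes when the proteasome is inhibited), occurred on either strand in the 250 bases before the start of 4 of 25 subunits in the RefSeq promoter table of GRCm38.p6 (16%), against 11.5% of 27025 genes. Nfe2l1 itself had 832 CPM in MII and 622 in GV (ratio 0.71, spread 1.60), and Nfe2l2, a related factor, had 19.9 CPM in MII and 48.3 in GV (−0.99, spread 1.48).

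Genes that work with the core and cap were described from lists chosen by name. Of 42, 32 were measured, with a median ratio of 0.21. Of these, 3 (Psmb11, Rps27a and Ufd1) were measured only through their GV level and 2 (Psmg4 and Sem1) only through their MII level. In MII, 4 (12.5%) were lower and 3 (9.38%) higher by at least 2-fold, both under the shares of 15.8% and 12.9% over all measured genes. Rps27a and Ufd1 were among the 4 lower genes, and Psmg4 and Sem1 among the 3 higher ones. The alternative subunits were nearly absent: Psmb8 (immunoproteasome) and Psma8 (testis) had no counts, Psmb9 had 0 in MII and 1 in GV, and Psmb10 had 3 in MII and 32 in GV. Psmb11, the thymus subunit, was the 1 of 5 measured, at 3.20 CPM in MII and 7.62 CPM in GV (ratio −0.93).

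Among other proteins of the regulatory particle, all 5 measured ratios were above 0, with a median of 0.73 (spread 1.06). Adrm1, a further ubiquitin receptor of the particle, had 773 CPM in MII and 319 CPM in GV (ratio 1.57, spread 1.46), with 230, 645 and 1689 CPM in MII oocytes and 97.3, 295 and 534 CPM in GV oocytes. Sem1, a small lid subunit, had 57 counts in MII and 158 in GV (1.68, spread 2.20). Usp14, a deubiquitinase of the particle, had the lowest ratio of the list, 0.52. Of the 3 measured activators and inhibitors, Psme3, the nuclear activator, was the most abundant at 1101 CPM in MII and 782 CPM in GV (ratio 0.78, spread 0.39). Psme4, an activator known from spermatogenesis, had the lowest ratio, 0.34.

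The assembly chaperones had a median ratio of 0.64 (spread 0.92) over the 6 of 8 measured. Psmd5 was the most abundant, at 200 CPM in MII and 137 CPM in GV (0.83, spread 0.67). Psmg4 had the highest ratio, 1.16 (spread 2.17), and Psmd10 the lowest, −1.59 (spread 0.998), with 2.56, 6.19 and 12.1 CPM in MII oocytes and 9.996, 27.8 and 41.7 CPM in GV oocytes.

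The ubiquitin genes and activating enzymes were spread most widely, with a median ratio of −0.99 over the 5 of 6 measured. Uba1, the main ubiquitin-activating enzyme, was the most abundant and had the highest ratio, with 1354 CPM in MII and 948 CPM in GV (0.80, spread 0.72). Rps27a, which encodes ubiquitin fused to a ribosomal protein, had the lowest ratio, −5.68 (spread 1.13), with 1 count in MII and 681 counts in GV and no overlap. Its CPM ratio MII over GV was 0.0106 (0.000269 to 0.0595, exact, counting error only). Ubb, a polyubiquitin gene, had a ratio of −0.23 (spread 1.25).

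Shuttle and extraction factors, which bring ubiquitinated substrates to the proteasome, had a median ratio of 0.01 (spread 0.45) over 10 of 11 measured. Rad23b was the most abundant, at 413 CPM in MII and 528 CPM in GV (−0.07), Ufd1, a cofactor of the extraction ATPase Vcp, had the lowest ratio (−1.50), and Akirin2, which carries proteasomes into the nucleus, the highest (0.82, spread 0.51).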

How the data were processed

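Counts per Ensembl gene ID were deposited by the authors, 1 file per oocyte, as whole numbers with no normalization, per the file headers and the values. Per the submitters' processing notes, cutadapt 4.0, STAR 2.7.10a and the build GRCm39 were used. Not given in the sources used here are the counter, its annotation, its use of strand and of reads with several matches, and molecular identifiers. Genes that a file does not list were set to 0.

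The stage label of each oocyte set its group, 6 MII and 9 GV. The lowest chi-square per degree of freedom over 51 pairs of oocytes of 1 stage was 8.06, so that no pair agreed within sampling noise. The subunits, the related lists and the tests were chosen with earlier results of these data known. Symbols, exon lengths, overlaps and transcripts came from GENCODE M21 (GRCm38), promoters from RefSeq, and no coordinates were carried between builds. Of 28785 IDs, 28402 had a symbol.

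CPM was computed from totals without the unnamed feature, which held 8.51% of all counts. Sums over oocytes have exact Poisson intervals and ratios of sums exact conditional 95% intervals. Since PCR copies 1 molecule many times, the intervals and the floors of 3 counts cover counting error only. The spread of a gene or class is the root of the summed squared SDs over oocytes of both stages, of log2(CPM + 1) relative to the oocyte's median gene, and is no error of a mean.

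Within each class, the subunits with the lowest ratio, the highest ratio and the highest MII level per kb were named with their range over oocytes, as were those whose ranges did not overlap. In each related list, the most abundant gene and both extremes of the ratio were named. The values of other genes were chosen for their role. Further 3' end sequences and related genes are not reported here. Alternatives were other totals and scaling factors (edgeR 4.0.16 TMM, DESeq2 1.42.0 median of ratios, used for no test), means or medians over oocytes, thinning to 536101 counts, other filters, 5 counts added, each GV file set, and leaving out oocytes. The ratio was checked on simulated counts. Tools were Python 3.11.15, pandas 2.3.3, SciPy 1.17.1 and R 4.3.3.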

Additional observations from a re-analysis of the deposited data

Results flagged for a closer look

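Each of 76 groups of oocytes held 1 stage's values of a subunit's CPM, the summed CPM, the Psmd4 share or a median level. In 11, all of them CPM of single subunits, the highest or lowest oocyte stood apart by more than Dixon's 95% limit. Chance gives about 1 in 20 for normally distributed values, which CPM need not be. In MII, MII1 was highest for Psma3 (14.9 CPM) and Psmb1 (14.9 CPM), MII5 for Psmb4 (97.3 CPM) and MII6 for Psmc4 (178 CPM). MII4 was lowest for Psma7 (29.0 CPM) and was the 1 MII oocyte with a count of Psmd13 (0.784 CPM). With the others at 0, any single count passes the limit, so the last of these says nothing about chance. In GV, GV4 was highest for Psma7 (469 CPM) and Psmb2 (404 CPM), GV8 was highest for Psma6 (56.7 CPM) and Psmb3 (42.4 CPM), and GV2 was lowest for Psmd3 (32.6 CPM).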

How the results depend on the processing

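Under the alternatives run, the ratios of Psma6, Psmb5, Psmb2, Psmd13 and Psmd4 kept their sign, and the ATPase median, close to 0, took either sign. With totals that include the unnamed feature, the median gene stood at −0.98, and the median ratio of the 31 subunits and that of the non-ATPases were both −1.23. On that scale 22 subunits were at least 2-fold lower and 0 higher, against 4957 lower and 202 higher of 10089 measured genes. The median gene stood at −0.29 without the feature, −0.09 with TMM and −0.04 with the median of ratios, so that ratios above 0 by less than the size of these shifts turn negative on those scales. At 20 CPM or more, 22 subunits were measured and 3 of them were lower (Psmb4, Psmb6 and Psmc1), against 629 of 6430 measured genes. Psma6, Psmb1, Psmb5 and Psmd13 did not reach that filter. Without MII5 and MII6, 10 subunits were lower and 1 higher (Psmd4), against 1823 lower and 1139 higher of 10325 measured genes. Without the 15 subunits that share at least 5% of their stretches, an alternative chosen after seeing the data, 2 of 16 were lower and 2 higher. That was 12.5% each way, against 15.8% lower and 12.9% higher of all measured genes. In CPM, all MII values lay below those of GV1 to GV6 for 2 subunits (Psmd1 and Psmd13; 2.25% of all measured genes) and below those of GV7 to GV9 for 5 (13.2%), and above those of GV7 to GV9 for 2 (Psmd4 and Psmd8; 6.36%). Relative to the median gene, Psmd13 alone lay below GV1 to GV6 (1.34%), and 1 subunit, Psmd4, lay above all GV oocytes. Leaving out 1 oocyte at a time gave a median over the subunits of −0.35 to −0.14, of −0.70 to −0.26 for the alpha ring, −1.29 to −0.85 for the beta ring, −0.25 to 0.36 for the ATPases and −0.30 to −0.14 for the non-ATPases, with 4 to 9 subunits lower and 1 to 3 higher. Of the 10202 to 10602 genes measured in these runs, 1447 to 1861 were lower and 1147 to 1537 higher. Without MII5, 1 subunit was higher, since Psmb2 dropped to 0.74. No paired analysis was possible because the values come from no test and the labels name no mouse. The MII oocytes' depth limits Psmd13, Psmb5, Psma3 and Psmb1, which had 1 to 17 counts there.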
